A study of Mus musculus with 4 samples.

Results

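The genes described here are 9 components of the circadian clock other than the Period genes, namely Cry1, Cry2, Ciart, Bhlhe40, Bhlhe41, Nr1d2, Rora, Npas2 and Hlf, chosen by symbol from the 28545 genes of the deposited tables. They were picked because of their values in the comparison of Cre-labelled with floxed-labelled libraries, so their differences between those groups are given as a description and carry no test. The study sequenced polyadenylated RNA of the endometrium, the lining of the uterus, from mice at proestrus, the stage of the cycle before ovulation. Of the 4 libraries, 2 are labelled SMAD7 Cre+/- with the treatment CKO (called Cre-labelled here), and their 2 controls are labelled SMAD7fl/fl with the treatment blank (called floxed-labelled). The series text calls the first SMAD7 knockout mice and the second WT. The floxed allele, whose loxP sites mark the stretch of Smad7 that Cre recombinase can remove, was made by injecting guide RNA, Cas9 mRNA and a donor vector into fertilized eggs. The strain, the age, the promoter that drives Cre, the allele state of Smad7 in the Cre-labelled mice and the hour of tissue collection are not given in the labels or series text. Nothing in the labels ties the libraries to separate animals, so spreads and p-values refer to these libraries and may be technical.

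The mammalian clock is a feedback loop of transcription that runs in most cells, the uterus included. A dimer of BMAL1 (gene Arntl) with CLOCK or its paralog NPAS2 binds E-box elements and turns on Per and Cry genes, whose proteins return to repress the dimer. A second loop is made by the REV-ERB repressors (Nr1d1, Nr1d2) and the ROR activators (Rora), which compete for ROR elements in genes such as Arntl and Npas2, and an output arm by the D-box activators DBP, TEF and HLF. Levels of many of these RNAs change with the hour of the day, and genes on the E-box arm peak at other hours than Arntl and Npas2.

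Total counts per library ran from 17444368 to 19830568 in the Cre-labelled group and from 18193504 to 22950532 in the floxed-labelled group. Smad7, the targeted gene, went against the labels, with 228 and 154 CPM (read counts scaled to library size by TMM) in the Cre-labelled libraries and 34.3 and 36.8 CPM in the floxed-labelled libraries. edgeR's quasi-likelihood test gave a log2 fold change of 2.42 ± 0.28 (SE) and an adjusted p of 0.0982. Directions below are therefore those of libraries as labelled, with loss of Smad7 RNA not seen. All 5 epithelial and all 6 stromal markers examined were detected in every library. Epithelial markers summed to 876 and 727 FPKM (deposited level per gene length and library total) in Cre-labelled and 640 and 1052 FPKM in floxed-labelled libraries. Stromal markers summed to 240 and 233 FPKM in Cre-labelled and 291 and 188 FPKM in floxed-labelled libraries. In every library both sums were below that of the smooth muscle markers given below, though sums over different genes do not give cell shares. Without overlap in FPKM, 1 epithelial marker was higher and 1 lower in Cre-labelled libraries, and 2 stromal markers were higher and 3 lower. Of 4 endothelial markers 0 were higher and 2 lower, of 4 macrophage markers 1 was higher and 2 lower, and all 3 adipocyte markers overlapped. Among the 13513 genes with a mean of at least 1 FPKM, 24.7% were higher and 23.6% lower without overlap in CPM. The share in FPKM was not computed, so the marker counts here are a description. Neutrophil markers summed to 1.51 and 2.21 FPKM in the Cre-labelled libraries and to 45.5 and 101 FPKM in the floxed-labelled libraries, with 4 of 4 markers lower. T and NK cell markers summed to 8.16 and 7.77 FPKM in Cre-labelled and 38.6 and 37.2 FPKM in floxed-labelled libraries. In this set 4 of 4 were lower, of which Cd3e stayed below 1 FPKM in all 4 libraries. Smooth muscle markers summed to 2759 and 2479 FPKM in Cre-labelled and 1749 and 1503 FPKM in floxed-labelled libraries, with 5 of 5 higher. Mesothelial markers stood at 39.8 and 22.2 FPKM in Cre-labelled and 12.0 and 8.21 FPKM in floxed-labelled libraries (3 of 3 higher). Oviduct and ovary markers stood at 86.1 and 266 FPKM in Cre-labelled and 19.9 and 42.0 FPKM in floxed-labelled libraries (4 of 5 higher). Most of the Cre-labelled sums came from Ovgp1, at 56.0 and 243 FPKM in Cre-labelled and 0.489 and 23.4 FPKM in floxed-labelled libraries. Foxl2 overlapped, at 20.0 and 14.3 FPKM in Cre-labelled and 17.2 and 16.5 FPKM in floxed-labelled libraries. Among the same 5 markers, Hsd3b1 had no count in either floxed-labelled library and Cyp11a1 stayed below 1 FPKM in all 4 libraries. The part that these cell types play in the clock gene values was not tested, and in bulk tissue fewer cells of a type and less RNA per cell cannot be told apart.

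Clock elements were sought only as exact matches near RefSeq start sites, so elements elsewhere or with other letters would be missed. RefSeq promoter windows on GRCm38.p6 were found for 8 of the 9 genes, all but Bhlhe40, and the 250 bases before each start were searched on both strands for the E-box CACGTG, the E-box variant CACGTT, the ROR core motif AGGTCA, the D-box TTANGTAA and the cAMP element TGACGTCA. The E-box was found in 3 of the 8 windows, those of Cry1, Ciart and Bhlhe41, against 6.02% of 32851 mouse windows of the same length. Ciart held 3 copies, at 116, 58 and 44 bases before its start, Cry1 held 1 at 60 bases and Bhlhe41 1 at 153 bases. The variant CACGTT was found in Cry1 and Cry2, at 79 and 166 bases before the start, against 3.85% of all windows. The Hlf window had no E-box but a cAMP element 9 bases before the start (1.55% of all windows), and that of Nr1d2 had an AGGTCA at 77 bases (14.0%). No D-box was found in the 8 windows (2.06% of all windows), and the windows of Rora and Npas2 held none of the 5 motifs. The Npas2 window (chr1:39194022-39194271) lies inside the gene as GENCODE places it, from 39193731 on the plus strand. The bases before that GENCODE start were not searched. No matches overlapped each other. The windows of 5 of these genes are printed below 5′ to 3′ in the direction of the gene, as far as they lie before the gene's start in GENCODE too, since they carry the E-box matches or the cAMP element. Capitals mark the matches. Distances above count from the RefSeq start, so they exceed those to the printed end for Ciart, Cry1 and Bhlhe41. All 5 lie on the minus strand, at chr3:95882252-95882478 for Ciart, chr10:85185065-85185304 for Cry1, chr6:145865559-145865670 for Bhlhe41, chr2:92434070-92434319 for Cry2 and chr11:90390918-90391167 for Hlf.
Ciart: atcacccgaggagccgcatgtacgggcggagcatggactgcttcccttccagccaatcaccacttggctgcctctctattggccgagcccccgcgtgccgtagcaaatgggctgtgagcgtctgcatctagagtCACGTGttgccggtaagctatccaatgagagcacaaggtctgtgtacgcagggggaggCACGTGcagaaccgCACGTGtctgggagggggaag
Cry1: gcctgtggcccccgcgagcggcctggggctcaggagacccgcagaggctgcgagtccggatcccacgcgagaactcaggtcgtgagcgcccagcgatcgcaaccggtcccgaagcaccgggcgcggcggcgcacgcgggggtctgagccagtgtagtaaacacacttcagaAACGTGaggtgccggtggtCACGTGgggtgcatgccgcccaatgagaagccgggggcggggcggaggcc
Bhlhe41: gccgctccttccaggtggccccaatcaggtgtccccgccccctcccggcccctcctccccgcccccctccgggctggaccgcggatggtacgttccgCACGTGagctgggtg
Cry2: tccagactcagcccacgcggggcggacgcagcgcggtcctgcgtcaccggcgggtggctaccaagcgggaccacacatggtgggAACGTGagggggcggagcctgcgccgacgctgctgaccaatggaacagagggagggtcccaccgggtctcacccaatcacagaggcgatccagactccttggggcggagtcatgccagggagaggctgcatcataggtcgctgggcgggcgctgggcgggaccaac
Hlf: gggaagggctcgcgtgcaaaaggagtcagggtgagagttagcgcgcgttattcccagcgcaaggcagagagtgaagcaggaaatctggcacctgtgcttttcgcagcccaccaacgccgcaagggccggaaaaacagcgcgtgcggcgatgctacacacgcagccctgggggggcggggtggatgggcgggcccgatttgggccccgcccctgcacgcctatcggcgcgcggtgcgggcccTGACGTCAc

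**Figure D1:**
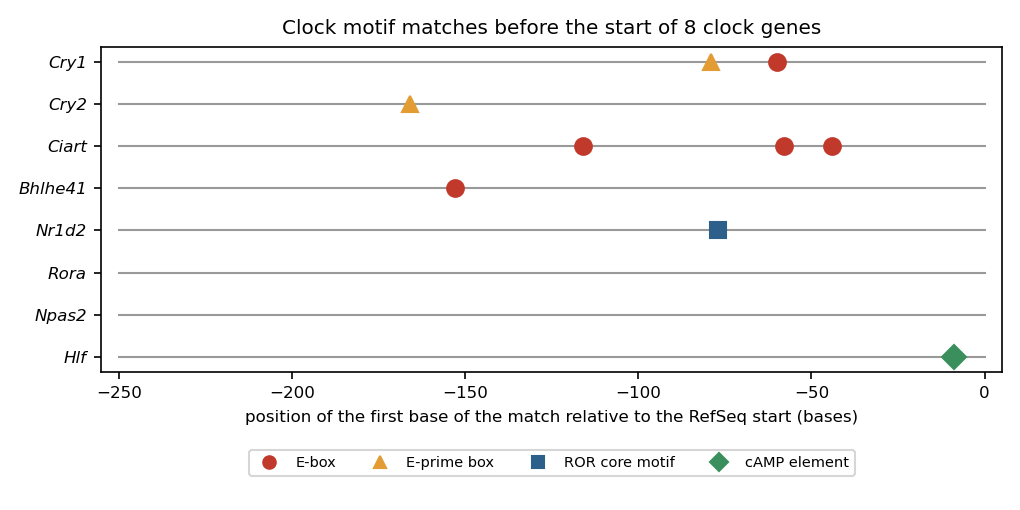
Matches to clock motifs in the 250 bases before the RefSeq start of 8 clock genes, with distance from the start on the x axis and a line per gene. Ciart has 3 E-box matches, Cry1 and Bhlhe41 have 1 each, and Rora and Npas2 have no match of any kind. The Npas2 window lies inside the gene as GENCODE places it.

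Across the 9 genes, 6 had higher CPM in both Cre-labelled libraries than in either floxed-labelled library, 1 had lower CPM in both, and in 2 the groups overlapped. The 6 were Cry1, Cry2, Ciart, Bhlhe41, Nr1d2 and Hlf, which encode 5 repressors and an output activator, and the gene with lower values was Npas2, which encodes an activator. Over all 13513 genes tested, 24.7% were higher and 23.6% lower without overlap. Since the genes were chosen on this contrast, nothing is read from that difference. The median log2 fold change of the 9 was 0.70, and that of all genes tested was -0.03. All 9 passed the filter of a mean of at least 1 FPKM, but Ciart and Bhlhe41 averaged below 1 FPKM in the floxed-labelled libraries and passed through the Cre-labelled ones.

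**Figure D2:**
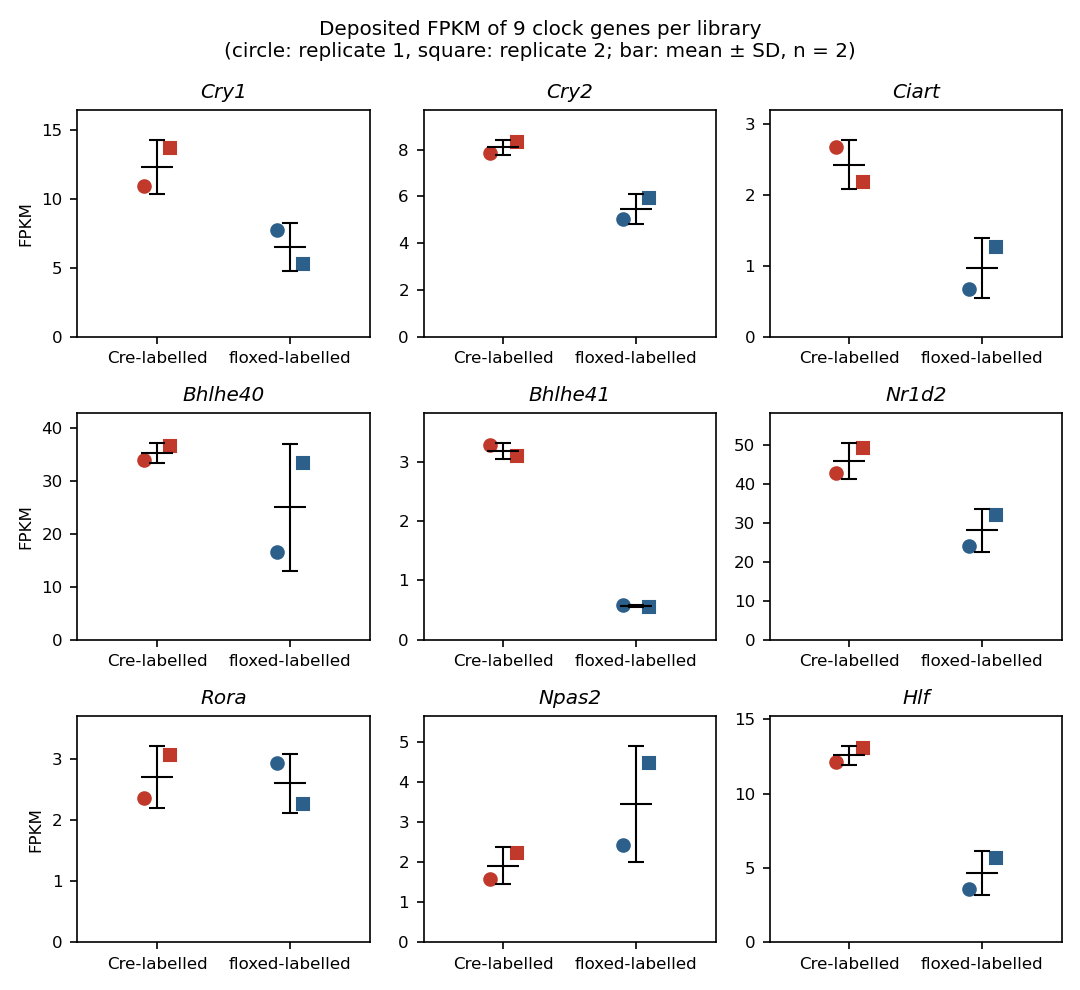
Deposited FPKM of the 9 clock genes in each library, with Cre-labelled libraries left of floxed-labelled ones; circles and squares are replicates 1 and 2, and bars show the mean ± SD of 2 libraries. Bhlhe41 stands at 3.28 and 3.09 FPKM in the Cre-labelled libraries and at 0.584 and 0.556 FPKM in the floxed-labelled ones, while the Rora values overlap.

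The cryptochromes CRY1 and CRY2 are main repressors of the BMAL1 dimer. Cry1 (ENSMUSG00000020038, chr10:85131700-85185064, minus strand of GRCm38) had 10.9 and 13.7 FPKM in the Cre-labelled libraries, against 7.71 and 5.28 FPKM in the floxed-labelled libraries. Both Cre-labelled libraries lay above both floxed-labelled ones, and the log2 fold change was 0.92 ± 0.27 (SE). Cry2 (ENSMUSG00000068742, chr2:92403646-92434043, minus strand) had 7.87 and 8.33 FPKM in the Cre-labelled libraries, against 5.01 and 5.91 FPKM in the floxed-labelled libraries. These groups did not overlap either, at a log2 fold change of 0.56 ± 0.22 (SE), the smallest of the 6 genes with higher values. The floxed-labelled library with the higher Cry1 had the lower Cry2. An annotated gene on the opposite strand shares 4.67% of the Cry2 exon bases. That gene had at most 16 counts in a library.

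CIART, also called CHRONO, represses the BMAL1 dimer and is itself an E-box gene. Ciart (ENSMUSG00000038550, chr3:95878503-95882251, minus strand) was scarce, with 120 and 86 counts in the Cre-labelled libraries and 35 and 52 counts in the floxed-labelled libraries. These were 2.68 and 2.18 FPKM in Cre-labelled and 0.674 and 1.26 FPKM in floxed-labelled libraries, without overlap. The log2 fold change was 1.31 ± 0.51 (SE), the largest standard error among the 9, and the floxed-labelled libraries differed from each other by 1.00 on the log2 scale. Without floxed-labelled library 2 the log2 fold change was 1.88, and without floxed-labelled library 1 it was 0.89.

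BHLHE40 and BHLHE41, known as DEC1 and DEC2, are paralogs that repress by occupying E-boxes, and both also respond to signals outside the clock. Bhlhe41 (ENSMUSG00000030256, chr6:145858243-145865558, minus strand) had 3.28 and 3.09 FPKM in the Cre-labelled libraries, against 0.584 and 0.556 FPKM in the floxed-labelled libraries, from 437 and 362 against 90 and 68 counts. This was the widest difference among the 9, a fold of 5.57 or a log2 fold change of 2.48 ± 0.29 (SE). Libraries of a group differed by 0.09 (Cre-labelled) and 0.03 (floxed-labelled) on the log2 scale. With 2 libraries in a group, and 90 and 68 counts in the floxed-labelled ones, gaps that small do not measure precision. With limma on log2(FPKM + 1), a scale that understates changes of low genes, the difference was 1.41. Exons of Gm43909, on the opposite strand, cover 19.0% of the Bhlhe41 exon bases, and without a stated strand setting reads there cannot be told apart. Reads assigned to Gm43909 itself numbered 4 and 1 in the Cre-labelled and 0 and 2 in the floxed-labelled libraries.

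Bhlhe40 (ENSMUSG00000030103, chr6:108660629-108666925, plus strand) did not share the pattern of its paralog. It had 161 and 173 CPM in the Cre-labelled libraries, against 75.5 and 164 CPM in the floxed-labelled libraries, so that floxed-labelled library 2 stood within the Cre-labelled range. On the FPKM scale, which uses total counts, the values were 33.9 and 36.6 FPKM in Cre-labelled and 16.5 and 33.4 FPKM in floxed-labelled libraries, and there they did not overlap. The log2 fold change of 0.48 ± 0.40 (SE) turned on the floxed-labelled libraries, being 0.03 without library 1 and 1.14 without library 2 of that group. A gene on the opposite strand shares 2.51% of its exon bases.

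NR1D2, or REV-ERB beta, represses genes with ROR elements. Nr1d2 (ENSMUSG00000021775, chr14:18204054-18239127, minus strand) had the highest mean level per length of the 9 in each group, with 42.8 and 49.3 FPKM in the Cre-labelled libraries and 24.2 and 32.1 FPKM in the floxed-labelled libraries, although Bhlhe40 lay above it in floxed-labelled library 2. The Nr1d2 groups did not overlap, and the log2 fold change was 0.70 ± 0.27 (SE). RORA, which activates through the same elements, showed no such separation. Rora (ENSMUSG00000032238, chr9:68653786-69388246, plus strand) had 2.36 and 3.08 FPKM in the Cre-labelled libraries and 2.95 and 2.27 FPKM in the floxed-labelled libraries, so each group spanned about the same range. Its log2 fold change of 0.06 ± 0.24 (SE) was the smallest of the 9 and took the other sign without floxed-labelled library 2 (-0.08) and without Cre-labelled library 2 (-0.14).

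NPAS2 pairs with BMAL1 in place of CLOCK, and Npas2 was the gene of the 9 with lower values in the Cre-labelled group. It (ENSMUSG00000026077, chr1:39193731-39363236, plus strand) had 1.58 and 2.24 FPKM in the Cre-labelled libraries, against 2.42 and 4.47 FPKM in the floxed-labelled libraries. The highest Cre-labelled and the lowest floxed-labelled value lay close together, at 10.8 and 11.3 CPM. The log2 fold change of -0.87 ± 0.44 (SE) was -0.31 without floxed-labelled library 2 and -1.28 without floxed-labelled library 1.

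HLF, a bZIP activator of D-box genes, is a clock output factor. Hlf (ENSMUSG00000003949, chr11:90336536-90390895, minus strand) had 12.1 and 13.0 FPKM in the Cre-labelled libraries, against 3.60 and 5.68 FPKM in the floxed-labelled libraries. The lower Cre-labelled value was well above the higher floxed-labelled one, and the log2 fold change was 1.43 ± 0.30 (SE), or a fold of 2.69, second among the 9. It was 1.10 without floxed-labelled library 1 and 1.84 without floxed-labelled library 2.

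**Figure D3:**
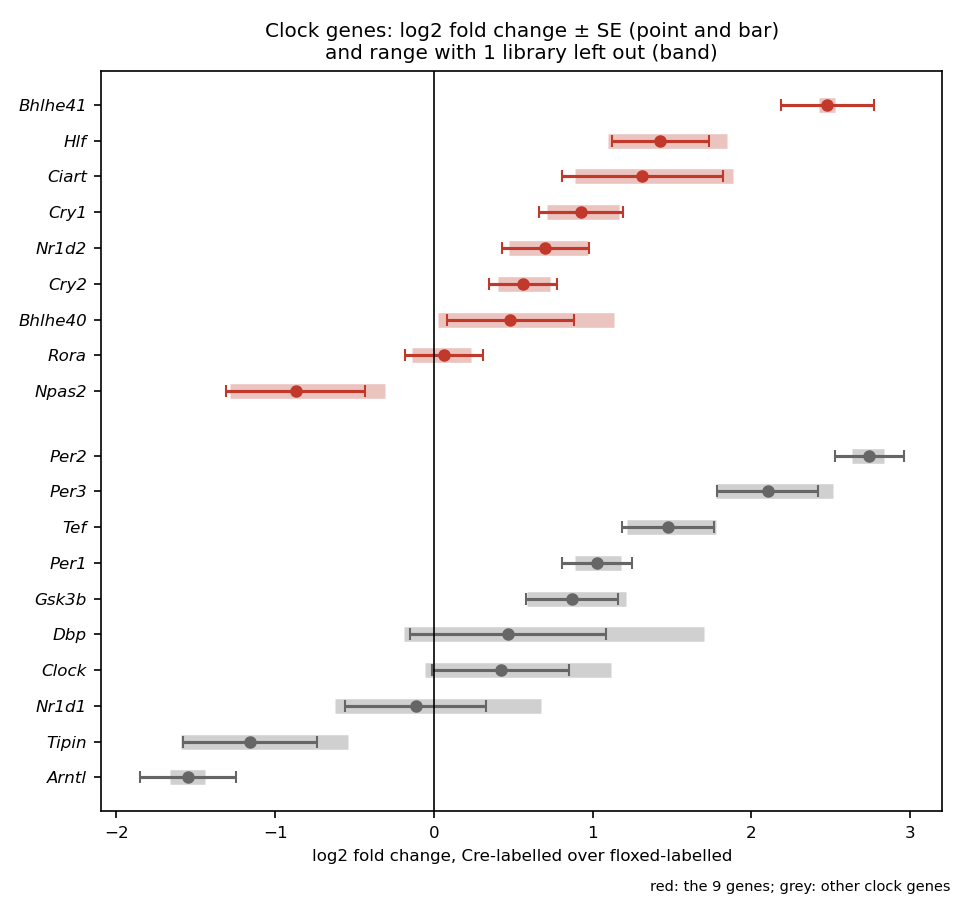
Log2 fold changes of Cre-labelled over floxed-labelled libraries for the 9 clock genes (red) and the other clock genes named in the text (grey); points and bars give the estimate ± SE, and bands the range when 1 library is left out. The band of Bhlhe41, from 2.43 to 2.52, stays close to its estimate of 2.48, and that of Bhlhe40 runs from 0.03 to 1.14.

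The order of levels per length differed between the groups. In the Cre-labelled libraries Nr1d2 (46.0 ± 4.61 FPKM) and Bhlhe40 (35.2 ± 1.91 FPKM) led, followed by Hlf (12.6 ± 0.639 FPKM) and Cry1 (12.3 ± 1.96 FPKM), whose ranges overlapped, and then by Cry2 and Bhlhe41 (mean ± SD, n = 2 each). At the low end Rora, Ciart and Npas2 averaged 2.72, 2.43 and 1.91 FPKM, and neighbours there overlapped. In the floxed-labelled libraries Nr1d2 and Bhlhe40 averaged 28.1 ± 5.57 and 24.9 ± 12.0 FPKM and overlapped, and Cry1, Cry2, Hlf, Npas2 and Rora followed, each overlapping its neighbour. Ciart and Bhlhe41 were last, at 0.969 ± 0.417 and 0.570 ± 0.0193 FPKM. Npas2 ranked 9 of 9 in Cre-labelled and 6 of 9 in floxed-labelled libraries, and Hlf ranked 3 and 5 in the same order.

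The floxed-labelled libraries were less alike than the Cre-labelled ones for most of these genes, as for the whole table. The difference between floxed-labelled libraries exceeded that between Cre-labelled libraries in 7 of the 9 genes, against 72.2% of all genes tested. The exceptions were Bhlhe41 and Rora. The median difference on the log2 scale was 0.20 within the Cre-labelled pair and 0.50 within the floxed-labelled pair, against 0.19 and 0.42 over all genes tested. In 6 of the 9 genes the log2 fold change between groups was wider than the gap between the floxed-labelled libraries (42.0% of all genes tested), the exceptions being Bhlhe40, Rora and Npas2. The choice of the 9 on this same contrast favours such a count, so nothing is read from its distance to that share. Gaps over all genes were taken after a small constant was added to CPM, which narrows them for low genes. Those of the 9 genes were taken without it, so the measures are not quite alike.

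Ratios of FPKM within a library do not depend on how libraries are scaled to each other. These pairs were chosen after the values were seen. Bhlhe40 exceeded Bhlhe41 by 10.3 and 11.8 times in the Cre-labelled libraries and by 28.2 and 60.0 times in the floxed-labelled libraries. The ratio of Cry1 to Cry2 was 1.39 and 1.64 in Cre-labelled and 1.54 and 0.893 in floxed-labelled libraries, which overlapped. Both cryptochromes had higher values in the Cre-labelled libraries, but their proportion was not separated between groups. The ratio of Nr1d2 to Rora, a repressor to an activator of the same elements, was 18.1 and 16.0 in Cre-labelled and 8.19 and 14.1 in floxed-labelled libraries, without overlap. Npas2 relative to its paralog Clock was steady at 0.247 and 0.251 in the Cre-labelled libraries but stood at 0.297 and 1.31 in the floxed-labelled libraries. Floxed-labelled library 2 was the library in which Npas2 exceeded Clock. The ratio of Tef to Hlf was 3.72 and 3.27 in Cre-labelled and 3.65 and 3.20 in floxed-labelled libraries, so the 2 output factors kept a like proportion in all 4 libraries. The third of that family, Dbp, did not, with a ratio to Hlf of 4.86 and 3.46 in Cre-labelled and 4.56 and 10.1 in floxed-labelled libraries.

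**Figure D4:**
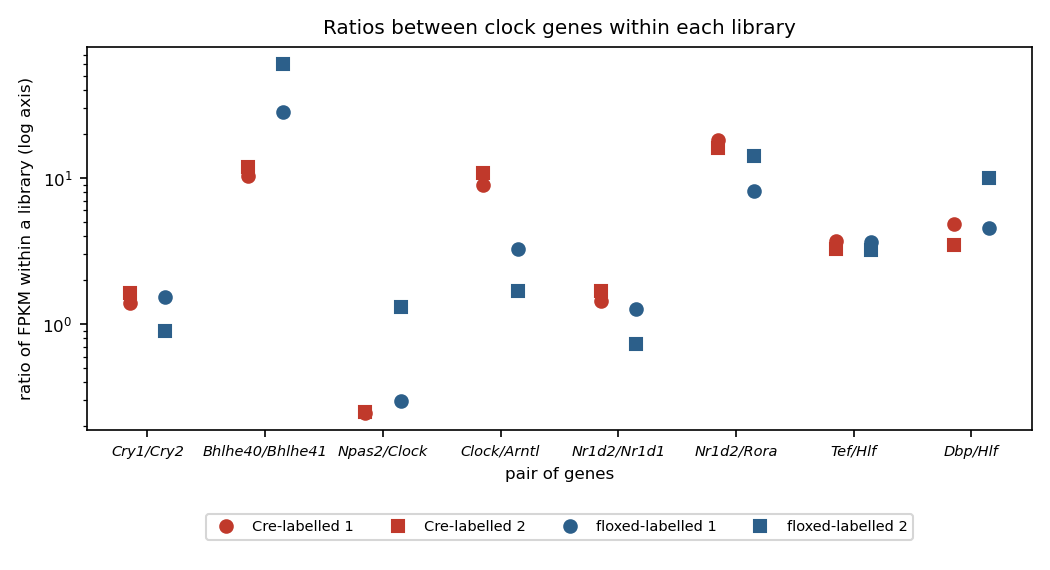
Ratios of FPKM between pairs of clock genes within each library, on a log axis, with Cre-labelled libraries (red) left of floxed-labelled ones (blue) and circles and squares for replicates 1 and 2. The Bhlhe40 to Bhlhe41 ratio is 10.3 and 11.8 in Cre-labelled and 28.2 and 60.0 in floxed-labelled libraries, while Tef to Hlf stays between 3.20 and 3.72.

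Other genes of the pathway formed a list of 21 clock components and their regulators. It was chosen with earlier results of these data known, so its counts and p-values are a description and not independent support. These genes were tested in the fit over all 13513 genes. That fit called 0 genes at an adjusted p under 0.05 (0.0% of those tested), with 1876 at an unadjusted p under 0.05, while DESeq2 called 438 genes higher (3.24%) and 405 lower (3.0%). Of the 21 clock genes 19 passed the filter, 0 of them passed the test, and 5 were higher and 2 lower when p was left unadjusted at 0.05, against 7.3% higher and 6.58% lower over all genes. The median log2 fold change of the 19 was 0.18. The genes with higher values were Per1, Per2, Per3, Tef and Gsk3b, and those with lower values Arntl and Tipin. With DESeq2 5 of the 19 passed at an adjusted p under 0.05, namely Per1 (0.0134), Per2 (2.9e-19), Per3 (2.1e-06) and Tef (0.000298), which were higher, and Arntl (0.00205), which was lower. The edgeR fit called 8 of them without floxed-labelled library 1, where 31.4% of all genes tested were called, and 11 without floxed-labelled library 2, where 21.8% of all genes were called. It called 0 when Cre-labelled library 1 or 2 was left out.

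Per2 and Per3, partners of the cryptochromes in repression, had the widest differences in that list. Per2 averaged 129 ± 12.2 CPM in the Cre-labelled libraries and 19.2 ± 1.24 CPM in the floxed-labelled libraries (SD, n = 2 each; edgeR adjusted p of 0.0919). Per3 averaged 134 ± 9.68 CPM in Cre-labelled and 31.2 ± 11.2 CPM in floxed-labelled libraries (edgeR adjusted p of 0.106). Per1 had a log2 fold change of 1.03 ± 0.22 and Tef, a D-box activator like HLF, one of 1.48 ± 0.29 (SE; edgeR adjusted p of 0.167 and 0.155). Gsk3b, a kinase that acts on clock proteins among many others, had 0.87 ± 0.29 (edgeR adjusted p of 0.295).

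Arntl, which encodes BMAL1, lay on the same side as Npas2. It had 5.44 and 6.22 CPM in the Cre-labelled libraries and 18.4 and 15.8 CPM in the floxed-labelled libraries, a log2 fold change of -1.55 ± 0.30 (SE; edgeR adjusted p of 0.153). Tipin, a replication factor that binds TIMELESS, had -1.16 ± 0.42 (edgeR adjusted p of 0.328), with 9.72 ± 1.08 CPM in Cre-labelled and 21.7 ± 10.6 CPM in floxed-labelled libraries (SD, n = 2 each), and was at -0.54 without floxed-labelled library 1 and -1.59 without library 2 of that group. Clock, Nr1d1 and Dbp were not separated, at log2 fold changes of 0.42 ± 0.43, -0.11 ± 0.44 and 0.47 ± 0.62 (SE; edgeR adjusted p of 0.684, 0.927 and 0.753). In these genes the floxed-labelled libraries lay far apart. Dbp, of whose exon bases 18.0% are shared with Sphk2 on the opposite strand, had 178 and 136 CPM in the Cre-labelled libraries and 47.9 and 179 CPM in the floxed-labelled libraries. Nr1d1, which shares 8.55% with Thra, had 92.6 and 90.8 CPM in Cre-labelled and 57.2 and 141 CPM in floxed-labelled libraries. Clock had 88.6 and 123 CPM in Cre-labelled and 109 and 48.7 CPM in floxed-labelled libraries. Each direction depended on which floxed-labelled library was left out: the log2 fold changes without library 1 and without library 2 of that group were -0.19 and 1.70 for Dbp, -0.62 and 0.68 for Nr1d1, and 1.12 and -0.05 for Clock.

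Each of the 9 profiles over the 4 libraries was compared with those of 27 other clock genes by the root mean square difference of log2 CPM after centring each gene on its mean. With 4 libraries this describes likeness only. Hlf was closest to Tef (0.10 on the log2 scale), and Ciart was closest to Hlf (0.17). Bhlhe41 was closest to Per2 (0.15), Nr1d2 and Cry2 were closest to each other (0.11), and Cry1 was closest to Gsk3b (0.086). Rora was closest to Usp2 (0.12) and Bhlhe40 to Nr1d2 (0.23). Npas2 had the most distant nearest profile, that of Nr1d1 (0.47), and both had their highest value in floxed-labelled library 2.

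**Figure D5:**
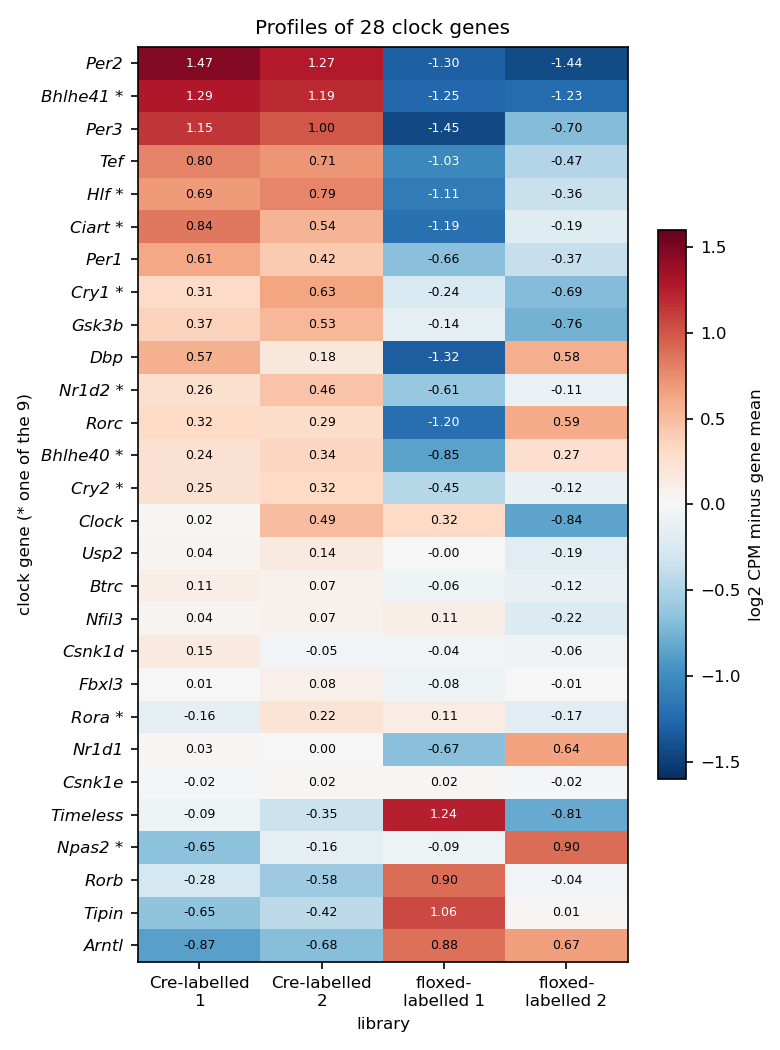
Log2 CPM minus the gene's mean in each library for the 28 clock genes tested, ordered by their mean in the Cre-labelled libraries, which form the 2 columns on the left; asterisks mark the 9 genes. Per2 and Bhlhe41 are at the top with values over 1 in both Cre-labelled libraries, and Arntl is at the bottom.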

How the data were processed

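Each of the 4 endometrial libraries has a table in which, per the file headers, the authors deposited raw read counts and FPKM for every gene. HISAT2 and HTSeq 0.13.5 with GRCm38 are named in the submitters' processing notes, and strand settings are not stated there. RNA came from a TRIzol extraction and libraries from a NEBNext Ultra kit, per the labels' protocols.

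Deposited counts were fitted in edgeR 4.0.16 (R 4.3.3) by quasi-likelihood with TMM scaling and no term but group, on 2 residual degrees of freedom. The fit covered the 13513 genes that averaged at least 1 FPKM and set aside 15032. Tests were two-sided, and Benjamini-Hochberg adjustment ran over all of these genes. The SE of a log2 fold change was obtained by dividing it by the root of the F statistic. The 9 genes and all lists were chosen with earlier results of these data known. Text values cover the 9 genes, 7 clock genes named with those results known (Per1, Per2, Per3, Arntl, Clock, Nr1d1, Dbp) and listed genes at an unadjusted p under 0.05. Other genes were named after their values were seen. Alternatives were filters, scaling, DESeq2 1.42.0, limma 3.58.1 on log2(FPKM + 1) and log2(FPKM + 0.1), the replicate block and each library left out. Positions and exon overlaps are from GENCODE M21, and promoter sequences from RefSeq. A fixed floor of 3 counts equals 0.127 to 0.173 CPM. It was not used as a filter, and it covers neither variation between libraries nor counting error at higher counts.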

Additional observations from a re-analysis of the deposited data

How the results depend on the processing

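The number of genes called at an adjusted p under 0.05 was 0 with edgeR, 1928 with no filter on low genes, 1 with a filter of 5 FPKM and 843 with DESeq2, and it ran from 0 to 4249 with 1 library left out, when the lone library of a group is assumed to vary like the other group. The cause of these shifts was not tested. Smad7 passed the test with no filter (log2 fold change 2.37) and with DESeq2 (2.43), and ranged from 2.11 to 2.68 with 1 library left out. Other clock genes at an unadjusted p under 0.05 numbered 7, and 3 to 12 with 1 library left out, where the count over all genes moved as well, at 1876 and 618 to 5634. The groups did not overlap in 7 of the 9 clock genes, while over all genes tested 24.7% were higher and 23.6% lower without overlap. The count was 4 with a filter of 5 FPKM, which left fewer of the 9. It was 7 to 9 with 1 library left out, where a lone library makes overlap less likely. The share over all genes was not computed for these alternatives. The median log2 fold change of the 9 genes ranged from 0.47 to 0.97 over 12 alternatives. Among them Rora alone took the other sign, without floxed-labelled library 2 (-0.08) and without Cre-labelled library 2 (-0.14). Nr1d1 reversed to 0.026 and 0.031 with limma at pseudocounts of 1 and 0.1 and to 0.028 with the replicate block, and ranged from -0.62 to 0.68 with 1 library left out. In the same way Clock ranged from -0.054 to 1.12 and Dbp from -0.19 to 1.70. Replicate numbers gave no sign of pairing, with a correlation of -0.0757 between the groups' differences of replicate 1 and 2, and with the replicate block 0 genes were called and 6 other clock genes had an unadjusted p under 0.05. Ciart had the fewest counts of the 9 genes in every library, at 35 and 52 in the floxed-labelled ones. The part of depth in its spread was not tested.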

Other observations

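Genes known as outputs of the clock in several tissues formed a list of 10, chosen with earlier results of these data known. All of them passed the filter, with 5 log2 fold changes above 0 and 5 below. In CPM, where 24.7% of all genes tested were higher and 23.6% lower without overlap, 2 of the 10 were higher and 4 lower. Their median log2 fold change was 0.03, and 2 were higher and 1 lower when p was left unadjusted at 0.05, against 7.3% higher and 6.58% lower over all genes tested, with 0 at an adjusted p under 0.05 in edgeR's quasi-likelihood test. Herpud1, an endoplasmic reticulum stress protein, averaged 201 ± 13.6 CPM in Cre-labelled and 103 ± 42.0 CPM in floxed-labelled libraries, and Cdkn1a, an inhibitor of the cell cycle, 41.5 ± 0.333 CPM in Cre-labelled and 19.4 ± 7.84 CPM in floxed-labelled libraries (SD, n = 2 each). Dtx4, a ubiquitin ligase, was on the other side, at 46.8 ± 0.824 CPM in Cre-labelled and 90.2 ± 35.2 CPM in floxed-labelled libraries. The edgeR adjusted p-values were 0.314, 0.269 and 0.299 for Herpud1, Cdkn1a and Dtx4. Without floxed-labelled library 1 the log2 fold change of Herpud1 was 0.60 against 0.97 with all libraries, and that of Dtx4 was -0.48 against -0.95. Without floxed-labelled library 2 that of Herpud1 was 1.45 and that of Cdkn1a was 0.73 against 1.10 with all libraries.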
